A study of Mus musculus with 8 samples.

Results

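The immunoglobulin heavy chain genes of the mouse were described in kidneys of adult and aged animals. Members were every row of the deposited table whose identifier maps to a variable (Ighv), diversity (Ighd followed by a number) or joining (Ighj) segment, or to 1 of the 8 constant genes Ighm, Ighd, Ighg3, Ighg1, Ighg2b, Ighg2c, Ighe and Igha. These are 205 genes of 30146 in the table, from 207 rows, with 8 constant genes, 173 variable segments, 20 diversity segments and 4 joining segments. The choice went by gene name and used no measured value, though it was made with earlier results of these data known. The study asked how a western diet bears on the renal transcriptome of hypertensive mice that overexpress the human angiotensin II type 1 receptor. All 8 mice were C57/BL6, carried haplotype II (Hap-II) of that human receptor gene and ate the western diet. The 4 adult mice and the 4 aged mice therefore shared genotype and diet and differed by the age label, and the labels name neither their ages nor the promoter of the transgene. No group without the transgene or on another diet was part of the comparison. Whole kidney RNA was made into stranded libraries after pull-down of polyadenylated RNA, 1 library for each mouse.

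An antibody heavy chain is encoded by a variable, a diversity and a joining segment that a developing B cell joins by DNA recombination, followed by a constant region. The first constant regions used are those of IgM and IgD, and class switching later replaces them by those of IgG, IgE or IgA. Plasma cells, the end stage of the B lineage, make the bulk of secreted antibody, and IgA made as a dimer with the J chain is carried across epithelia by the polymeric immunoglobulin receptor. A healthy kidney holds few B lineage cells, in its interstitium. In whole tissue, fewer cells of a type and less RNA per cell cannot be told apart.

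The values are in the TPM unit (transcript abundance on a fixed total), which are scaled for transcript length and for the total of each library, and which keep no read depth. The column totals ran from 924798 to 950974 TPM, and 10663 to 12293 genes per library reached 1 TPM. Kidney markers were present in every library, with Umod between 159 and 1477 TPM and Slc34a1 between 270 and 1279 TPM. The summed TPM of 4 Y-linked genes (Ddx3y, Kdm5d, Eif2s3y and Uty) put the libraries into 2 classes that the labels do not name. Replicates 1 and 2 of each group held between 0.485 and 2.30 TPM of them, and replicates 3 and 4 of each group held between 34.7 and 50.6 TPM. Mitochondrial transcripts made up 19.6% to 26.1% of the adult libraries and 26.8% to 46.9% of the aged libraries, without overlap, and their part in the results was not tested beyond the rescaling given for the fits. Summed alpha and beta globin transcripts, a measure of red cell RNA, ran from 2698 to 10638 TPM in adult and from 931 to 14650 TPM in aged libraries.

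All 205 members lie on mouse chromosome 12 between bases 113254830 and 116000461 of GRCm38, 204 of them on the minus strand and 1 (Ighv5-8) on the plus strand. The constant genes occupy 113254830 to 113422730, and the variable segments begin 143 kb from Ighj1 (Ighv5-1) and end 2570 kb from it (Ighv1-85). The joining segments are shown whole because their shortness bears on how they are counted. Capitals mark the match to TGGGGN, searched on the coding strand, which holds the codon for the conserved tryptophan and the glycine codon after it. Sequences are those of GENCODE M21 transcripts on GRCm38, given 5′ to 3′ on the coding strand.
Ighj1: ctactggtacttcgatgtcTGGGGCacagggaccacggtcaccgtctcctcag
Ighj2: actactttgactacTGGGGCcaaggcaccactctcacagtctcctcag
Ighj3: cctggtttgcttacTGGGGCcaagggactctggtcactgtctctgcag
Ighj4: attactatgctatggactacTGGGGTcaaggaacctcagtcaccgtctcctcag
A diversity segment is shorter still, as the whole of Ighd1-1 shows.
Ighd1-1: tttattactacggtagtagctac

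The last 60 bases of the 4 variable segments with the highest mean TPM are shown because segments of 1 family differ there by few bases while another family differs by many. Capitals mark a match to TANTNNTGN on the coding strand, a loose pattern that takes in the codons for tyrosine, for tyrosine or phenylalanine, and for the conserved cysteine before the join.
Ighv1-26: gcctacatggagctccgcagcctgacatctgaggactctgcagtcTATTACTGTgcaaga
Ighv9-3: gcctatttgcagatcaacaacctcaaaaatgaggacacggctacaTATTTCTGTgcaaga
Ighv1-53: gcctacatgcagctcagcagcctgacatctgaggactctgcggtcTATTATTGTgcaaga
Ighv6-3: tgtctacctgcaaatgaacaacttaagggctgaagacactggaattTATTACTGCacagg
The pattern was found in 147 of the 173 variable segments (85.0%) and within the last 60 bases of 136 (78.6%). Likeness of this kind bears on the values, since reads that 2 segments share have to be divided between them. Of the 31-base words of a variable segment, a median of 40.7% also occurred in a transcript of any other annotated gene. The range was from 0 to 100%, and the share exceeded 50% in 57 segments. Ighv1-26 shared 74.8% of its words, Ighv1-53 72.9%, Ighv1-72 98.1% and Ighv9-3 42.7%. Values of single variable segments are therefore uncertain.

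The constant genes are less alike. The first 60 bases of the constant region are shown for the 4 IgG genes, with capitals at the bases that differ from Ighg2c, and for Ighm and Igha.
Ighg2c: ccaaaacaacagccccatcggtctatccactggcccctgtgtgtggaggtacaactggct
Ighg2b: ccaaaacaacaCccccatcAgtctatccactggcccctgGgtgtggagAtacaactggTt
Ighg1: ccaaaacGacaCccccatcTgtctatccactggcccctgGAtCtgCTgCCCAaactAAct
Ighg3: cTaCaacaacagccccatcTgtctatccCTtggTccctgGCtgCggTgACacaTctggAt
Ighm: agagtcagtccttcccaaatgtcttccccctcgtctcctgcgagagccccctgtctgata
Igha: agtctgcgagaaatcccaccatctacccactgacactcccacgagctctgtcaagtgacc
In this window Ighg2b differed from Ighg2c at 5 bases, and Ighg1 and Ighg3 each at 14. Over whole transcripts, 15.2% of the 31-base words of Ighg2c and 12.7% of those of Ighg2b occurred in any other annotated gene. That share was 2.38% for Ighg3, 0.765% for Ighg1 and 0 for Ighm, Igha, Ighd and Ighe, so IgM and IgA can be told apart from the rest by sequence while a small part of the IgG2 signal may be traded.

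The first comparison asked how much heavy chain RNA adult and aged kidneys held, and of which class. IgA was the most abundant heavy chain class in 6 of 8 kidneys and IgM in the other 2, both adult. Mean TPM was higher in aged than in adult kidneys for each of the 5 constant genes that reached a mean of 1 TPM, and none passed the test across all genes. The values of the 2 groups overlapped for all 5. The fit was limma on log2(TPM + 1) over the 11796 genes with a mean of at least 1 TPM, with Benjamini-Hochberg adjustment and a threshold of 0.05. It called 0% of all genes higher and 0% lower in aged mice. An unadjusted p under 0.05 was reached by 75 genes higher in aged mice (0.636%) and by 325 lower (2.76%). Leaving out 1 library at a time gave at most 2 called genes, which was without aged replicate 1.

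**Figure D1:**
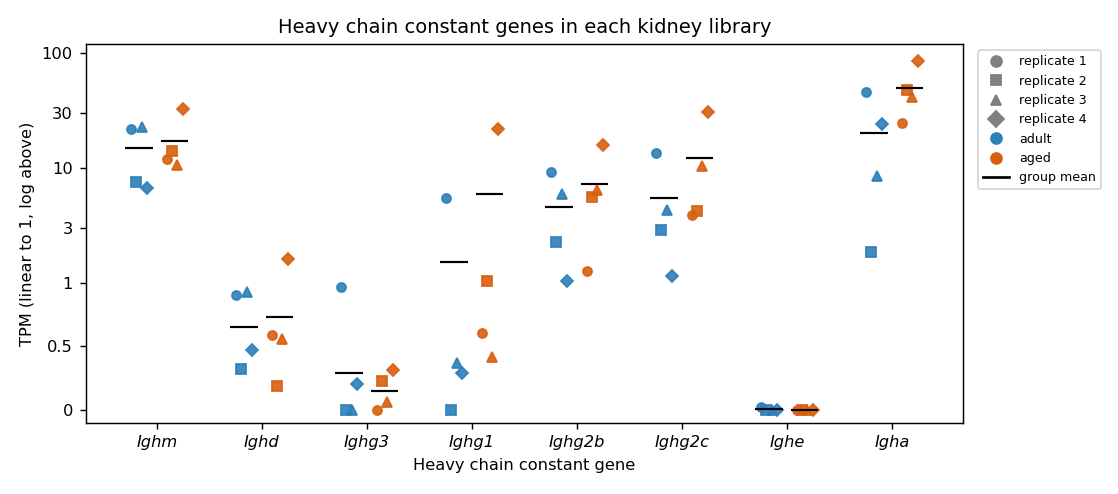
TPM of the 8 heavy chain constant genes (horizontal axis, in the order of the locus) in each of the 4 adult and 4 aged libraries, on a vertical axis that is linear to 1 and logarithmic above. Symbols mark replicates and bars the group means. Igha and Ighm lie highest, Ighe lies at or near 0, and aged replicate 4 is the highest library for Igha, Ighm, Ighd, Ighg1, Ighg2b and Ighg2c.

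Igha (113254830 to 113260236), the constant gene of IgA, stood at 46.2, 1.83, 8.42 and 23.9 TPM in adult replicates 1 to 4 and at 24.6, 48.1, 41.6 and 85.4 TPM in aged replicates 1 to 4. Adult replicate 1 lay among the aged libraries, the other 3 adult libraries lay under every aged one, and the groups overlapped. The means were 20.1 ± 19.7 and 49.9 ± 25.6 TPM (SD, n = 4 each). The log2 fold change was 1.80 (SE 0.72), with an unadjusted limma p of 0.0292 and a Benjamini-Hochberg adjusted p of 1.00. It fell to 1.06 without adult replicate 2, the library with the least Igha.

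Ighm (113418558 to 113422730), the constant gene of IgM, stood at 22.0, 7.49, 22.9 and 6.72 TPM in adult and at 11.9, 14.0, 10.6 and 32.6 TPM in aged libraries. Adult values fell into a higher and a lower pair, and 3 of the 4 aged values lay between these pairs. The means were 14.8 ± 8.87 and 17.3 ± 10.3 TPM (SD, n = 4 each), and the log2 fold change of 0.27 (SE 0.46) was smaller than its error. It turned to -0.07 without aged replicate 4 and to -0.01 without adult replicate 4.

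The IgG2 genes encode classes that are prominent in responses to viruses in mice. Ighg2c (113285325 to 113288932) stood at 13.5, 2.87, 4.26 and 1.15 TPM in adult and at 3.89, 4.21, 10.4 and 30.4 TPM in aged libraries. Ighg2b (113302965 to 113307933) stood at 9.21, 2.24, 5.92 and 1.03 TPM in adult and at 1.26, 5.55, 6.42 and 15.8 TPM in aged libraries. For both genes aged replicate 4 was highest and adult replicate 4 lowest, with adult replicate 1 second highest, and the groups overlapped widely. The log2 fold changes were 0.96 (SE 0.66) for Ighg2c and 0.50 (SE 0.62) for Ighg2b, and without aged replicate 4 they were 0.40 and 0.05.

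Ighg1 (113325240 to 113330523) encodes the IgG class tied to type 2 immune responses. It stood at 5.41, 0, 0.368 and 0.288 TPM in adult and at 0.607, 1.02, 0.418 and 21.8 TPM in aged libraries. A single library in each group carried nearly all of it, adult replicate 1 and aged replicate 4. The log2 fold change of 0.80 (SE 0.85) turned to -0.14 without aged replicate 4.

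The other 3 constant genes had means under 1 TPM and were not tested. Ighd, the constant gene of IgD that naive B cells transcribe together with Ighm, lay between 0.320 and 0.924 TPM in adult and between 0.185 and 1.59 TPM in aged libraries. Ighg3 reached 0.966 TPM in adult replicate 1 and at most 0.310 TPM in the aged libraries, and it was listed at 0 in 3 libraries. Ighe, the constant gene of IgE, was listed at 0 in 7 libraries and at 0.0203 TPM in adult replicate 1.

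Summed over the 8 constant genes, heavy chain RNA came to 98.2, 14.7, 42.8 and 33.8 TPM in adult and to 42.9, 73.3, 69.99 and 188 TPM in aged libraries. Aged replicate 4 held the most and adult replicate 2 the least, 3 adult libraries lay under the lowest aged one, and adult replicate 1 lay above 3 aged ones. The means were 47.4 ± 35.8 and 93.5 ± 64.3 TPM (SD, n = 4 each). The difference of the means was 46.1 TPM with all libraries and 14.7 TPM without aged replicate 4. The summed IgG genes gave 29.1, 5.11, 10.5 and 2.67 TPM across the adult libraries, then 5.76, 11.0, 17.3 and 68.2 TPM in aged libraries.

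Shares of the constant total do not depend on how much B lineage RNA a kidney held, so the isotype makeup was compared separately. Igha made up 47.0%, 12.4%, 19.7% and 70.8% of constant TPM in adult and 57.4%, 65.6%, 59.5% and 45.5% in aged libraries. The aged shares lay close together and inside the range of the adult shares. The means were 37.5% ± 26.8 and 57.0% ± 8.44 (SD, n = 4 each), and an exact two-sided permutation test over the 70 assignments gave p = 0.286, or 0.476 after Benjamini-Hochberg adjustment over the 5 isotypes tested.

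Ighm made up 22.4%, 50.8%, 53.5% and 19.9% in adult and 27.8%, 19.1%, 15.1% and 17.4% in aged libraries. It was above 50% in adult replicates 2 and 3 and under 30% in all other libraries. The means were 36.6% ± 18.0 and 19.8% ± 5.55 (SD, n = 4 each; exact permutation p = 0.171, adjusted 0.476). Mean shares were 11.6% and 11.4% for Ighg2c (exact permutation p = 1, adjusted 1), 10.4% and 7.02% for Ighg2b (p = 0.229, adjusted 0.476) and 1.80% and 3.75% for Ighg1 (p = 0.514, adjusted 0.643) in adult and aged libraries. The smallest exact p that 4 against 4 libraries allow is 0.0286, and for a single share adjusted over 5 it is 0.143, so a difference in 1 isotype alone could not have passed the threshold and its absence is not shown.

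**Figure D2:**
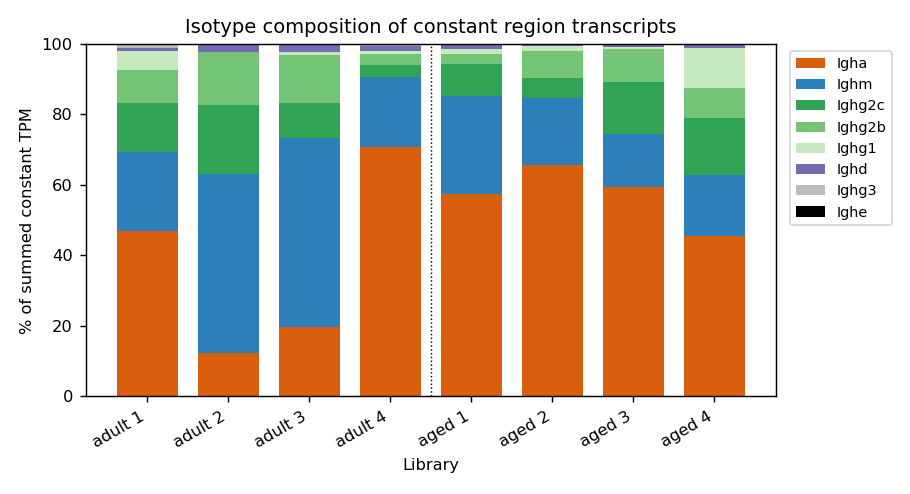
Percent of the summed constant region TPM (vertical axis, 0 to 100) taken by each of the 8 constant genes in each library (horizontal axis, 4 adult then 4 aged). Igha takes between 45.5% and 65.6% in the aged libraries and between 12.4% and 70.8% in the adult ones, where adult replicates 2 and 3 are led by Ighm.

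The second comparison concerned the segments that encode the variable domain. Variable segment RNA was spread over many segments at low levels. Of the 173 segments, 89 were above 0 in at least 1 library and 84 were listed at 0 in all. Ighv1-53 alone was above 0 in all 8, with a value of only 0.000135 TPM in adult replicate 4. Aged libraries had 80 segments above 0 in at least 1 of 4 and adult libraries 66, with 57 in common. Of the 23 seen in aged libraries alone, 16 were in a single library, as were 7 of the 9 seen in adult libraries alone. With so many segments near the limit of what was counted, and with depth unknown, absence from a group cannot be read from these lists.

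The number of segments above 0 was 51, 6, 21 and 41 in adult and 19, 47, 46 and 51 in aged libraries. Adult replicate 2 had the fewest, and aged replicate 1 and adult replicate 3 stood apart from the 5 libraries with 41 or more. The mean difference of 11 segments became 3.08 when adult replicate 2 was left out and 7.58 when aged replicate 4 was. It became 18.1 when adult replicate 1 was left out and 18.2 when aged replicate 1 was. The inverse Simpson number, which counts how many equally used segments would give the same evenness, was 25.6, 4.45, 8.20 and 21.3 in adult and 13.9, 27.2, 29.5 and 25.2 in aged libraries. It was lowest in the 3 libraries with the fewest segments above 0.

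Summed variable segment TPM was 75.6, 4.34, 23.8 and 36.0 in adult and 30.4, 98.1, 42.8 and 206 in aged libraries, with means of 34.9 ± 30.1 and 94.4 ± 80.2 (SD, n = 4 each). Divided by summed constant TPM this gave 0.770, 0.294, 0.556 and 1.07 in adult and 0.709, 1.34, 0.611 and 1.10 in aged libraries. A rearranged heavy chain transcript carries 1 variable segment and 1 constant region. The ratio was lowest in adult replicate 2, the library with the least constant RNA, and its groups overlapped.

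**Figure D3:**
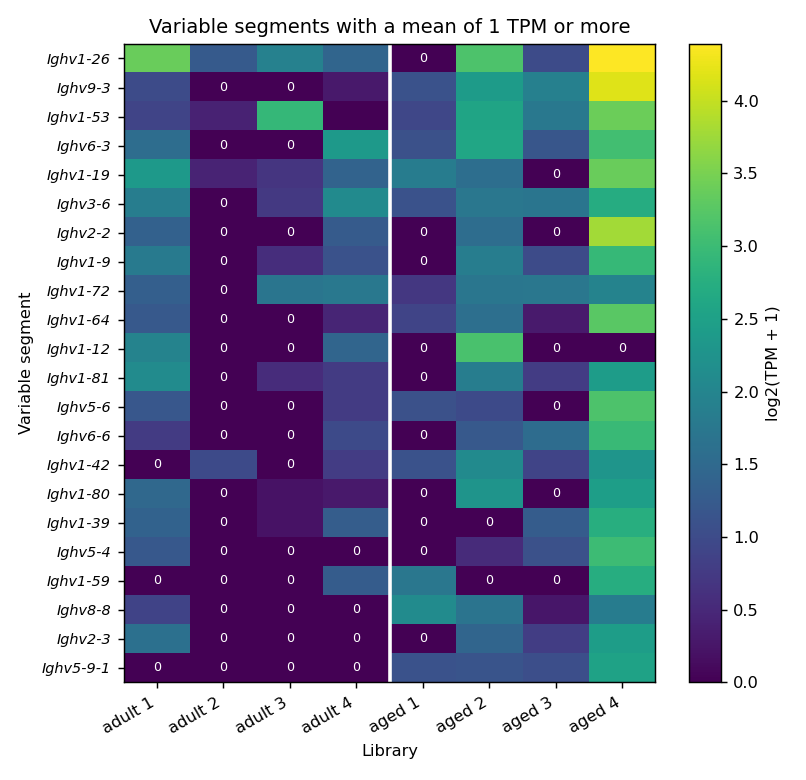
log2(TPM + 1), as colour, of the 22 variable segments with a mean of at least 1 TPM (vertical axis, from the highest mean down) in each library (horizontal axis). A printed 0 marks a segment listed at 0. The row of Ighv5-9-1 is listed at 0 in all 4 adult libraries, and the column of adult replicate 2 has the most zeros.

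The 10 segments with the highest mean made up 41.7% of mean variable TPM. Ighv1-26 (114788372 to 114788805) had the highest mean, with 9.43, 1.37, 2.83 and 1.69 TPM in the adult libraries and 0, 7.93, 0.998 and 20.0 TPM in aged libraries. It was the leading segment of adult replicates 1 and 2 and of aged replicates 2 and 4, and was listed at 0 in aged replicate 1. Its log2 fold change of 0.14 was positive with a pseudocount of 1 and -0.51 with a pseudocount of 0.1, and without aged replicate 4 it was -0.61.

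Ighv9-3 (114140692 to 114141122) stood at 1.02, 0, 0 and 0.232 TPM in adult and at 1.15, 4.29, 2.78 and 17.1 TPM in aged libraries. Every aged library lay above every adult one, with aged replicate 1 just above adult replicate 1. The log2 fold change was 2.07 (SE 0.55), with an unadjusted limma p of 0.00297 and a Benjamini-Hochberg adjusted p of 1.00. With an adult mean of 0.312 TPM, Ighv9-3 reached the filter of 1 TPM through the aged libraries.

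Ighv5-9-1 (113736111 to 113736630) was listed at 0 in all 4 adult libraries and stood at 1.16, 1.19, 1.08 and 4.77 TPM in the aged ones. It was 1 of 2 variable segments with this pattern. The other, Ighv2-6, had 0.580, 0.664, 1.43 and 0.829 TPM in the aged libraries, a mean under 1 TPM, and was not tested. Ighv2-6 falls outside the rule for named genes and was singled out after its values were seen. No segment was above 0 in all 4 adult libraries and listed at 0 in all 4 aged ones. Groups without overlap were found for 41 of all genes tested with aged higher (0.348%) and for 249 with aged lower (2.11%). Among the 31 members tested these counts were 2 (Ighv9-3 and Ighv5-9-1) and 0. Both segments had an adult mean under 1 TPM and reached the filter through the aged libraries. Their being tested at all depended on the difference, so the 2 are no fair match for the share of all genes.

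Ighv1-53 (115158403 to 115158835) stood at 0.870, 0.344, 6.62 and 0.000135 TPM in adult and at 0.915, 4.89, 2.38 and 9.60 TPM in aged libraries. It led adult replicate 3, where it made up 27.8% of variable TPM. Ighv6-3 stood at 1.98, 0, 0 and 4.20 TPM in adult and at 1.12, 5.06, 1.25 and 7.30 TPM in aged libraries, and led adult replicate 4. The groups overlapped for both.

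The other 6 of the 10 highest segments were Ighv1-19, Ighv3-6, Ighv2-2, Ighv1-9, Ighv1-72 and Ighv1-64. Aged replicate 4 was the highest library for all 6, from 2.89 TPM of Ighv1-72 to 12.7 TPM of Ighv2-2. Adult replicate 2 was listed at 0 for 5 of them and held 0.349 TPM of Ighv1-19. Groups overlapped for all 6. The leading segment of a library took 12.5%, 31.7%, 27.8% and 11.7% of variable TPM in adult and 11.0%, 8.08%, 6.50% and 9.67% in aged libraries, and these were 5 different segments over the 8 mice.

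By family, Ighv1, the largest family of the locus, dominated, with 85 of the 173 segments (49.1%), 47 of them above 0, and a mean of 59.5% of variable TPM. Its share was 62.1%, 76.2%, 84.2% and 55.9% in adult and 53.0%, 56.7%, 37.2% and 50.7% in aged libraries, or 69.6% ± 12.9 and 49.4% ± 8.47 (SD, n = 4 each). Adult replicate 4 lay just under aged replicate 2, so the groups overlapped by this 1 pair. The highest shares were in adult replicates 2 and 3, the libraries with the lowest inverse Simpson numbers.

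The next families each took a mean of 5.32% to 7.82%. Ighv5 took 10.3%, 0, 0 and 6.39% in adult and 7.55%, 11.99%, 14.5% and 11.8% in aged libraries, and Ighv3 took 3.47%, 0, 10.2% and 9.58% against 3.81%, 5.12%, 8.32% and 3.42%. Ighv14 took 7.16%, 23.8%, 1.99% and 4.13% in adult and 5.88%, 1.60%, 2.55% and 1.198% in aged libraries, and its 23.8% came from 4.34 TPM of variable RNA in all. Ighv9, a family of 4 segments, took 2.998%, 0, 0 and 0.644% in adult and 13.3%, 4.37%, 13.001% and 8.28% in aged libraries. The Ighv9 shares did not overlap between groups, and they include Ighv9-3, so they are no separate evidence.

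The Ighv9 reads were not spread alike within the aged group. In aged replicate 3 the table gives the same 2.78 TPM to Ighv9-3 and to Ighv9-1, and in no other library is Ighv9-1 above 0. Ighv9-3 shares 29.0% of its 31-base words with Ighv9-1, more than with any other member. Ighv9-2 was above 0 in aged replicate 1 alone, at 2.88 TPM, where it exceeded Ighv9-3. Ighv9-1 and Ighv9-2 were named after their values were seen.

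Segments annotated as functional held nearly all variable RNA. Of 113 segments annotated as variable genes, 81 (71.7%) were above 0 in some library, and they held 99.1% of mean variable TPM. Of 59 annotated as pseudogenes, 8 (13.6%) were above 0, and they held 0.907%. The remaining segment, Ighv5-8, was listed at 0. In aged replicate 3 pseudogenes took 8.97% of variable TPM, led by Ighv3-2 at 1.298 TPM, and in the other 7 libraries at most 0.648%.

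**Figure D4:**
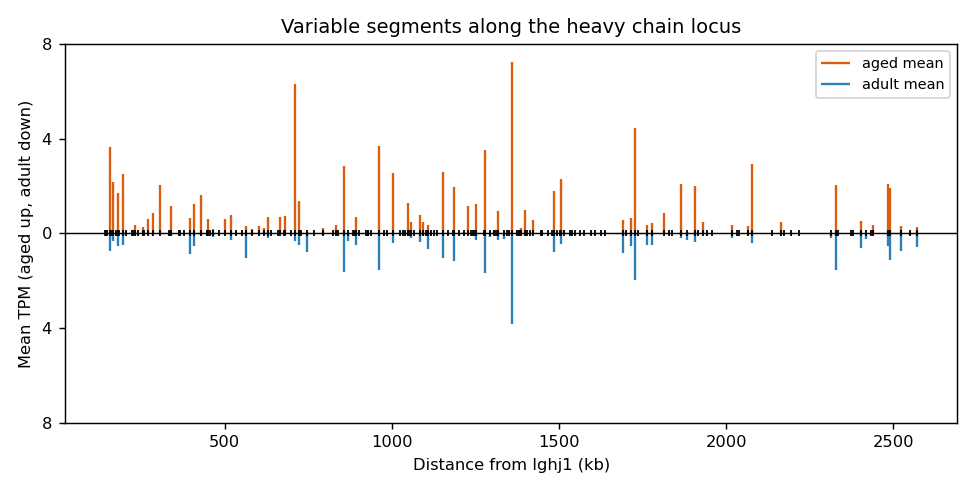
Mean TPM of each of the 173 variable segments (vertical axis, aged upward and adult downward) against its distance from Ighj1 in kb (horizontal axis), with a tick for each annotated segment. Segments with TPM above 0 occur along the whole array, and the tallest lines, Ighv9-3 and Ighv1-26, stand at intermediate distance.

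In the mean over the 8 libraries, usage did not gather at 1 end of the array. The 86 variable segments nearest to Ighj1 held 48.4% of mean variable TPM and the other 87 held 51.6%, and the 10 highest segments lay between 158 and 2328 kb from Ighj1. These shares are a description of 8 pooled libraries without a test. Aged replicate 4, with 206 TPM of variable RNA, weighs most in them. In adult replicates 2 and 3 most variable TPM lay in the 87 segments farther from Ighj1.

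The joining and diversity segments are at the limit of the method. All 20 diversity segments, of 10 to 29 bases, were listed at 0 in all 8 libraries. Whether transcripts so short could be counted at all is not known, so these zeros do not show absence. The 4 joining segments, of 48 to 54 bases, were above 0 in 2 to 5 libraries each, and length scaling makes a single fragment on so short a transcript weigh heavily. Ighj1 had 17.1 TPM in adult replicate 3 and 3.07 TPM in aged replicate 2, and was listed at 0 elsewhere. Ighj4 had 25.5 TPM in adult replicate 1 and 2.98 and 5.74 TPM in aged replicates 2 and 3, and was listed at 0 elsewhere.

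Ighj2 was listed at 0 in all adult libraries and stood at 0, 2.98, 0.953 and 44.7 TPM in the aged ones. Ighj3 stood at 3.26, 0, 0 and 0 TPM in adult and at 5.50, 9.11, 0.953 and 11.2 TPM in aged libraries. Its log2 fold change was 2.13 (SE 0.62), with an unadjusted limma p of 0.00514 and a Benjamini-Hochberg adjusted p of 1.00, and with adult replicate 1 above aged replicate 3. Summed joining TPM was 28.7, 0, 17.1 and 0 in adult and 5.50, 18.1, 7.65 and 55.9 in aged libraries, and these values did not follow the constant total closely, since adult replicate 4 had none.

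Across the members, 31 of 205 reached a mean of 1 TPM, and a member that reaches it through aged libraries alone is high there by construction. They were 5 constant genes, 22 variable segments and 4 joining segments. Of these 31, 29 had a positive log2 fold change and 2 (Ighv1-12 and Ighj1) a negative one, with a median of 0.80. Of all 11796 genes tested 35% had a positive one, with a median of -0.11. Without any filter, 101 members were above 0, 75 with a positive and 26 with a negative value, and the median was 0.30 beside -0.03 for 20354 genes. Without aged replicate 4, 15 of 20 members were positive, with a median of 0.27 beside -0.11 for all genes.

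An unadjusted p under 0.05 was reached by 7 members, all higher in aged mice: Igha, Ighj2, Ighj3, Ighv9-3, Ighv5-9-1, Ighv8-8 and Ighv1-42. Of all genes tested 0.636% reached it with aged higher and 2.76% with aged lower. All of these members except Igha had an adult mean under 1 TPM. It was 0 for Ighj2 and Ighv5-9-1, 0.814 for Ighj3, 0.312 for Ighv9-3, 0.209 for Ighv8-8 and 0.428 for Ighv1-42. They reached the filter through the aged libraries, so their being tested was tied to their being higher there. The count of 7 is therefore no fair match for the share of all genes. All members are genes of the B lineage, and a rearranged transcript carries both a variable segment and a constant region. These counts are therefore not counts of separate observations. No member passed the adjusted threshold. Dividing by size factors, quantile normalization and removing mitochondrial genes moved the median of all genes to -0.02, 0.01 and 0.14. The members' median was then 0.85, 0.84 and 0.85. With mitochondrial genes removed, 41 members reached a mean of 1 TPM in place of 31, so that last median covers a larger set.

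**Figure D5:**
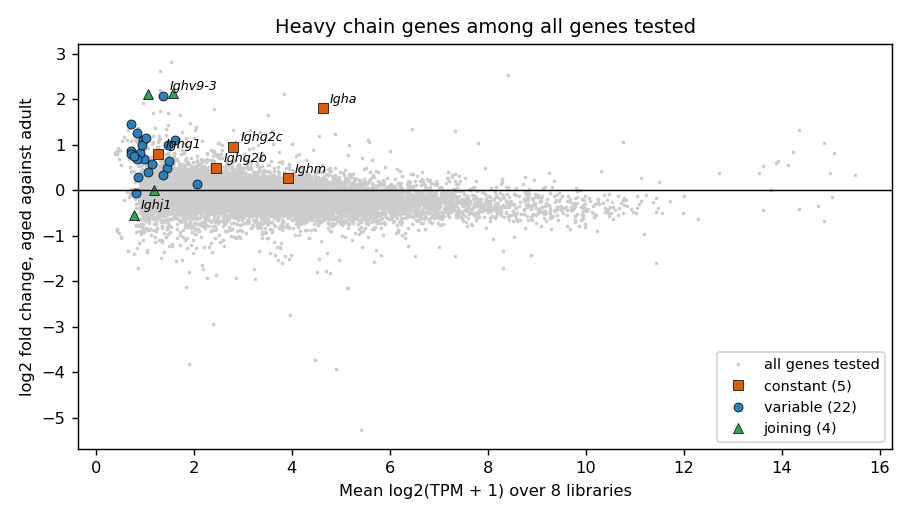
log2 fold change of aged against adult mice on the log2(TPM + 1) scale (vertical axis) against the mean of log2(TPM + 1) over 8 libraries (horizontal axis), for all 11796 genes tested (grey) and for the 5 constant genes, 22 variable segments and 4 joining segments among them. Igha at 1.80 stands above most genes of its level, and Ighm at 0.27 stands near the bulk.

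Within the libraries that hold Y-linked transcripts (adult replicates 3 and 4, aged replicates 3 and 4), 3 of 33 members tested passed the threshold, all higher in aged mice. In that fit 28 of 11200 genes (0.25%) were called higher and 32 (0.286%) lower. Igha rose by 1.99 (SE 0.46) on the log2 scale, with a limma Benjamini-Hochberg adjusted p of 0.0441. Ighg2c rose by 2.49 (SE 0.50; limma adjusted p = 0.0171) and Ighv9-3 by 2.90 (SE 0.53; limma adjusted p = 0.00815). Ighv9-3, at 0 and 0.232 TPM in these adult libraries, reached the mean of 1 TPM through the aged ones alone, so that its being tested at all depended on the difference. These calls rest on 2 libraries against 2.

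Within the libraries without Y-linked transcripts (replicates 1 and 2 of each group), 0 of 27 members were called, and 1 of 12148 genes (0.00823%) was called higher and 2 (0.0165%) lower. An unadjusted limma p under 0.05 was reached by 4 members, all higher, and by 90 of all genes higher (0.741%) and 211 lower (1.74%). The log2 fold change of Igha was 1.62 there (limma adjusted p = 1.00), and those of Ighg2c, Ighg2b and Ighg1 were negative, at -0.57, -0.58 and -0.49. The difference between the classes was tested as an interaction in limma. It was 3.06 (SE 0.99) for Ighg2c, with an unadjusted limma p of 0.0127 and a Benjamini-Hochberg adjusted p of 1.00, and 0.37 (SE 1.54) for Igha, with an adjusted p of 1.00. No member's interaction passed the threshold, so the classes are not shown to differ. With the class as a covariate over all 8 libraries, 0 genes were called by limma, and the adjusted p was 0.548 for Igha and 0.389 for Ighv9-3. In that fit 7 members had an unadjusted p under 0.05, all higher, beside 1.25% of all genes higher and 7.21% lower.

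The remaining comparisons placed the heavy chain genes beside those that act with them. Light chains pair with heavy chains in every antibody. Igkc, the kappa constant gene, stood at 201, 37.4, 131 and 109 TPM in adult and at 141, 186, 300 and 515 TPM in aged libraries. Adult replicate 2 was lowest and aged replicate 4 highest, as for the heavy chain total, and the groups overlapped. Its log2 fold change was 1.298 (SE 0.51), with an unadjusted limma p of 0.0267 and a Benjamini-Hochberg adjusted p of 1.00. Igkc exceeded the summed heavy chain constant genes in every library, by a ratio between 2.05 and 4.28. Of the 4 light chain constant genes listed, 2 had a row in the table and both had a positive value, and none passed the adjusted test.

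Plasma cell genes had values of both signs. Of 13, 7 were tested, 2 with a positive and 5 with a negative log2 fold change, with a median of -0.11, and none passed the adjusted threshold. Jchain, the protein that joins IgA and IgM units, stood at 18.4, 4.56, 28.4 and 18.3 TPM in adult and at 24.3, 20.9, 52.4 and 53.6 TPM in aged libraries. Only adult replicate 3 lay above the lower aged libraries, and the log2 fold change was 1.18 (SE 0.50), with an unadjusted limma p of 0.0367 and a Benjamini-Hochberg adjusted p of 1.00. Mzb1, a chaperone of antibody secretion, stood at 1.05 to 2.17 TPM in adult and at 0.988 to 3.49 TPM in aged libraries, with a log2 fold change of 0.23 (SE 0.33).

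The plasma cell genes with negative values were Xbp1, Sdc1, Eaf2, Fkbp11 and Txndc5, of which Xbp1 and Txndc5 act in protein folding and secretion in many cell types. The transcription factors Prdm1 and Irf4 and the receptor Tnfrsf17 had means under 1 TPM. Of 14 B cell genes, 3 were tested (Cd79a, Cd79b and Fcrla), with 1 positive and 2 negative values. Their summed list lay between 7.48 and 9.55 TPM in adult and between 4.55 and 10.8 TPM in aged libraries. Cd79a, a signalling partner of the B cell receptor, stood at 1.43, 0.363, 0.984 and 0.801 TPM in adult and at 1.69, 0.592, 0.666 and 2.12 TPM in aged libraries. The groups overlapped.

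Rag1, a subunit of the recombinase that joins the segments in developing B cells, was listed at 0 in all 8 libraries.

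Among 12 antibody receptors and transporters, 9 were tested, 3 with positive and 6 with negative values, with a median of -0.28, and none passed the adjusted threshold. Pigr, the polymeric immunoglobulin receptor of epithelia, stood at 13.8, 7.97, 19.3 and 22.8 TPM in adult and at 9.89, 26.5, 30.5 and 79.3 TPM in aged libraries. Aged replicate 1 lay among the adult libraries and the other 3 aged libraries above all of them. The log2 fold change was 0.89 (SE 0.53). Fcgrt, the neonatal Fc receptor that recycles IgG, had a log2 fold change of -0.44 (SE 0.48), and Fcamr, which binds IgA and IgM, of 0.06 (SE 0.64).

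Among 9 genes of B lineage attraction and survival, 5 were tested, 2 with positive and 3 with negative values, and a median of -0.02. Ccl28, an epithelial chemokine that draws IgA plasma cells, stood at 5.24, 4.55, 5.004 and 7.30 TPM in adult and at 19.8, 7.58, 22.5 and 39.7 TPM in aged libraries. Every aged library lay above every adult one, aged replicate 2 by a small margin. The means were 5.52 ± 1.22 and 22.4 ± 13.2 TPM (SD, n = 4 each). The log2 fold change was 1.66 (SE 0.41), with an unadjusted limma p of 0.00186 and a Benjamini-Hochberg adjusted p of 1.00. Among the libraries with Y-linked transcripts Ccl28 passed the threshold (limma adjusted p = 0.0136), as did Igkc (limma adjusted p = 0.0202). Both calls rest on 2 libraries against 2. In the libraries without Y-linked transcripts the log2 fold changes were 1.18 for Ccl28 and 0.89 for Igkc, and neither passed. Neither passed with the class as a covariate (limma adjusted p = 0.375 and 0.476). The receptor of Ccl28, Ccr10, was at most 0.389 TPM in any library.

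Markers of other blood cells were measured beside these. The T cell list summed to 10.4 to 20.0 TPM in adult and 6.79 to 13.9 TPM in aged libraries, and the macrophage list to 105 to 188 TPM and 58.9 to 276 TPM. Of 4 T cell, 7 macrophage, 2 neutrophil and 5 red cell genes tested, none passed the adjusted threshold, and 2, 1, 0 and 0 had positive values. Aged replicate 4, which held the most heavy chain RNA, had 1116 TPM of summed globins, the second lowest of the 8 libraries. The part of blood or of other leukocytes in the heavy chain values was not tested.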

How the data were processed

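RNA-seq of whole kidney from 4 adult and 4 aged mice was analysed from 1 table of TPM that the authors deposited. Per the submitters' processing notes, the tools were kallisto and DESeq2 and the build GRCm38, without versions or roles. The step that made the TPM, its settings and its annotation: not given in the sources used here. Columns were matched to samples by name. Depth is unknown, so no counting interval was computed. Of 30153 rows, 98.6% matched a symbol, and 7 were summed into another row of the same symbol. Coordinates, biotypes and sequences came from GENCODE M21 on GRCm38, with 31-base words as the measure of likeness.

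Aged and adult libraries were compared on the log2(TPM + 1) scale, for genes of at least 1 TPM on average, in limma 3.58.1 (R 4.3.3) with the trend option. Fold changes on that scale understate changes of low genes. P-values were adjusted by Benjamini-Hochberg over all genes tested, with a threshold of 0.05. The fit was tested on simulated data. Shares were compared by exact permutation. Libraries with over 10 TPM of summed Y-linked genes formed a class for the within-class fits. The labels state 4 animals per group. A gene listed at 0 may be a failed estimate.

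Named were the 8 constant genes, the 10 highest variable segments by mean, the 5 leading families, joining segments above 0, and members of at least 1 TPM whose groups did not overlap. The members, the marker lists and the rules were chosen with earlier results of these data known. Alternatives were other pseudocounts, filters and scalings, a fit without the trend, a replicate block, the Y-linked classes, and each library left out. From the marker lists 1 gene was left out of the text.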

Additional observations from a re-analysis of the deposited data

Results flagged for a closer look

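In a group of 4 libraries, 1 library was set apart from the other 3 in 15 of 84 groups tested, with Dixon's gap ratio above 0.829 in each. Chance gives about 1 in 20 for values without ties, a rate that does not apply here: 28 of the groups held a value of 0, and in 5 of the 15 the other 3 libraries were all listed at 0, so that any value above 0 would have stood apart. Aged replicate 4 was the highest of its group for Ighm at 32.6 TPM, Ighg1 at 21.8 TPM, Ighv2-2 at 12.7 TPM, Ighv5-9-1 at 4.77 TPM and Ighj2 at 44.7 TPM, and for the Ighg1 share of constant RNA at 11.6%. Adult replicate 1 was the highest of its group for Ighg1 at 5.41 TPM, Ighe at 0.0203 TPM, Ighj3 at 3.26 TPM and Ighj4 at 25.5 TPM, and for the Ighg1 share at 5.51%. Adult replicate 3 was highest for Ighv1-53 at 6.62 TPM and for Ighj1 at 17.1 TPM. Aged replicate 2 was highest for Ighj1 at 3.07 TPM. Aged replicate 1 had the fewest variable segments above 0 in its group, at 19. These values come from the same 8 libraries and often from the same transcripts, and the reasons were not tested.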

How the results depend on the processing

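No gene was called under the alternatives with all 8 libraries. Within the libraries without Y-linked transcripts 3 genes were called, within those with them 60, and with 1 library left out 0 to 2 (1 without adult replicate 3, 2 without aged replicate 1). Without Y-linked transcripts the log2 fold changes turned to -0.00400 for Ighm, -0.49 for Ighg1, -0.58 for Ighg2b, -0.57 for Ighg2c, -0.74 for Ighv1-26 and -1.37 for Ighj4, and the Ighg1 share to -1.35 percentage points. With them, Igha reached 1.99, Ighg2c 2.49 and Ighv9-3 2.90, each past the threshold, and the share differences turned to 0.349 points for Ighg2b and 8.81 for Ighg2c. A pseudocount of 0.1 gave Ighv1-26 -0.51, and a pseudocount of 5 gave Ighj4 -0.21. Leaving out 1 library gave log2 ranges of -0.0735 to 0.53 for Ighm, -0.14 to 1.41 for Ighg1, -0.61 to 0.85 for Ighv1-26, -0.0652 to 1.06 for Ighv1-19, -0.0568 to 0.61 for Ighv1-72 and -0.52 to 1.19 for Ighj4, and share ranges of -0.668 to 3.18 points for Ighg1 and -2.95 to 2.40 for Ighg2c. Igha stayed positive, from 1.06 to 2.41, the constant total differed by 14.7 to 63.1 TPM, and the Ighv1 share by -24.8 to -15.3 points. The cause was not tested. With 3 libraries against 4, adjusted over 5 isotypes, the share test had little room to reach the threshold. As a replicate block, the replicate numbers gave 0 called genes and an unadjusted p under 0.05 for 9 members in place of 7, all higher, beside 1.26% of all genes higher and 6.5% lower. Deviations of same-numbered libraries correlated at 0.038, 0.181, 0.486 and 0.415, and adult replicate 1 correlated best with aged replicate 2, so the numbers were not taken as pairs.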
